A study of Mus musculus with 14 samples.

Results

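Surface markers and signature genes of hematopoietic stem cells were followed through 3 mouse bone marrow populations, each in Dpy30 knockout (KO) and control cells. The 8 genes were given by name: Procr, Ly6a, Slamf1, Cd48, Cd34, Esam, Fhl1 and Trpc6. They are 8 of 38926 gene entries in the LSK and MyePro counts, where they were found by symbol, and 8 of 39179 in the long-term hematopoietic stem cell (LT-HSC) counts, where they were found by Ensembl ID. All 8 were present in all 8 RNA libraries. DPY30 is a shared subunit of the enzyme complexes that methylate lysine 4 of histone H3. The study asked how expression changes between LSK and MyePro cells in each genotype, and between genotypes in LT-HSC.

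KO cells were Mx1-Cre; Dpy30F/- and control cells were Mx1-Cre; Dpy30F/+, so both carried the Cre transgene and a floxed allele. Mx1-Cre is driven by an interferon-inducible promoter and was switched on in both genotypes with pIpC (7.5 µg/g, 4 injections beginning 7 weeks after transplantation). Donor marrow (CD45.2+) and competitor marrow (C57Bl/6J, CD45.1+) had been given together to irradiated CD45.1+ recipients. Cells were lineage-depleted and sorted 2 weeks after the last injection. The labels name the LT-HSC as donor-derived and do not say how competitor cells were kept out of LSK and MyePro. Donor age is not given in the labels. KO and control LSK, and KO and control MyePro, came as 1 library each from pools of 2 to 3 mice, without amplification. LT-HSC came as 2 KO and 2 control libraries, from transplants 1 and 2, each a pool of 7 to 9 mice, with amplified RNA. The labels give neither the LT-HSC nor the MyePro gate.

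Stem cells in mouse marrow are isolated by the proteins on their surface. The LSK fraction is by its usual definition lineage-negative, positive for Sca-1 (the product of Ly6a) and positive for the receptor KIT. Within it, stem cells are commonly taken as CD150-positive (the product of Slamf1) and CD48-negative, low in CD34, and positive for EPCR (the product of Procr) and ESAM, while most committed progenitors carry CD48 and CD34. A gene whose protein sets a gate is not a finding between the populations sorted with it. This applies to Ly6a between LSK and MyePro, and its values there are a description.

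The LSK and MyePro libraries held between 6130320 (KO LSK) and 20820762 (control MyePro) gene counts, and the LT-HSC libraries between 38060087 (control LT-HSC 2) and 85499797 (KO LT-HSC 1). Levels are given as CPM, the counts of a gene scaled to the gene counts of its library with TMM factors, and the LT-HSC table was scaled apart from the LSK and MyePro table, so levels are not compared across the tables. Transcript lengths were not used, so levels are not compared between genes. The targeted gene Dpy30 stood at 41.7 CPM in KO LSK, against 78.0 CPM in control LSK, and at 51.6 CPM in KO MyePro, against 116 CPM in control MyePro. In LT-HSC it stood at 14.1 and 4.67 CPM in the libraries labelled KO, against 12.9 and 8.43 CPM in the control libraries, so KO LT-HSC 1 was not lower than its controls. Which exons are deleted is not given in the labels, so the counts check the genotype in part only. Xist stood at 2170 and 1500 CPM in the libraries labelled KO from LT-HSC, against 239 and 150 CPM in control LT-HSC, and the Y-linked Ddx3y at 0 and 0.0294 CPM, against 14.5 and 8.71 CPM, so sex makeup cannot be told apart from genotype there. Summed over 12 myeloid progenitor markers, KO MyePro held 6790 CPM and KO LSK 3120 CPM, against 11600 CPM in control MyePro and 3430 CPM in control LSK. Mpo alone stood at 2110 CPM in KO MyePro and 980 CPM in KO LSK, against 6550 CPM in control MyePro and 2030 CPM in control LSK. Gene by gene, whatever the size, 9 of the 12 were higher and 3 lower in KO LSK (median log2 ratio 0.60). In KO MyePro 6 were higher and 6 lower (median -0.03). Of 8 genes taken as markers of LSK and stem cells, Kit, Ly6a, Slamf1, Procr, Cd34 and Flt3 encode surface proteins and Mecom and Hlf transcription factors. All were above 0 in all 8 libraries. KO LSK was below control LSK by more than 2-fold in 4 of them, Hlf (log2 ratio -2.12), Mecom (-2.00), Flt3 (-1.80) and Slamf1 (-1.25). Among all genes compared in LSK, 5.67% were at least 2-fold lower in KO.

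In the libraries used here, 1 library stands for each genotype of LSK and MyePro. Differences that involve them therefore have no replicate check, and no p-value is given. Genes were compared where they averaged 5 CPM or more over both libraries, and a difference of at least 2-fold was counted. The 95% intervals cover counting error only, not the spread between mice. In sorted bulk RNA, fewer cells of a type and less RNA per cell cannot be told apart.

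From LSK to MyePro cells, Trpc6 was at least 2-fold higher in KO cells with TMM scaling. Slamf1 and Fhl1 were higher in KO cells and Esam lower, each by less than 2-fold. In control cells, by contrast, all 8 genes were lower, 7 of them by at least 2-fold. The receptors and adhesion proteins that mark primitive cells are described first. Procr, the endothelial protein C receptor EPCR, stood at 1.75 CPM in KO MyePro and 12.3 CPM in KO LSK, against 0.974 CPM in control MyePro and 13.9 CPM in control LSK. Both MyePro libraries were far below both LSK libraries. The log2 ratio of MyePro to LSK was -2.72 in KO (interval -3.60 to -2.10) and -3.64 in control (interval -4.59 to -3.15). The control MyePro value rests on 19 counts and the KO MyePro value on 20.

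Ly6a, which encodes the GPI-anchored protein Sca-1, was at 11.5 CPM in KO MyePro and 61.1 CPM in KO LSK, against 4.87 CPM in control MyePro and 31.5 CPM in control LSK. KO was above control in both populations, and MyePro below LSK in both genotypes. The log2 ratio of MyePro to LSK was -2.40 in KO and -2.66 in control. The difference between these ratios was 0.26 (interval -0.17 to 0.69), within counting error of 0. Ly6a belongs to a family of similar genes on chromosome 15 and lies inside the annotated lncRNA Gm28068, so reads could have been shared or set aside in counting, and its level is uncertain to that extent.

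Esam, an immunoglobulin-type adhesion molecule of endothelial cells and stem cells, stood at 19.9 CPM in KO MyePro (227 counts) and 25.3 CPM in KO LSK (170 counts), against 0.615 CPM in control MyePro (12 counts) and 20.5 CPM in control LSK (302 counts). Control MyePro was the only low library of the 4. The log2 ratio of MyePro to LSK was -0.35 in KO (interval -0.64 to -0.05) and -4.75 in control (interval -6.03 to -4.23). In control, 3 of the 10074 genes compared had a lower ratio. The order from high to low was KO LSK, control LSK, KO MyePro and control MyePro, in which control LSK and KO MyePro did not differ beyond counting error.

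Of the 2 SLAM receptors, Slamf1, which encodes CD150, stood at 9.10 CPM in KO MyePro (104 counts) and 5.95 CPM in KO LSK (40 counts), against 3.54 CPM in control MyePro (69 counts) and 14.3 CPM in control LSK (211 counts). Its order differed between genotypes, with MyePro the higher population in KO and LSK the higher in control. The log2 ratio of MyePro to LSK was 0.60 in KO (interval 0.07 to 1.18) and -1.97 in control (interval -2.43 to -1.62). Cd48, whose product is a GPI-anchored ligand of CD244 and is missing from the surface of most stem cells, stood at 78.0 CPM in KO MyePro and 141 CPM in KO LSK, against 92.0 CPM in control MyePro and 137 CPM in control LSK. Its log2 ratio of MyePro to LSK was -0.86 in KO and -0.58 in control, below 2-fold in both.

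Cd34, a sialomucin of the surface of progenitors and endothelial cells, stood at 422 CPM in KO MyePro and 837 CPM in KO LSK, against 319 CPM in control MyePro and 762 CPM in control LSK. MyePro was below LSK in both genotypes, by a log2 ratio of -0.99 in KO (interval -1.04 to -0.93) and -1.26 in control (interval -1.30 to -1.21). Both intervals are narrow because Cd34 had between 4816 and 11205 counts in each library. The lncRNA Gm16897 overlaps Cd34 in the annotation.

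The remaining genes encode proteins that are not used to sort cells. Fhl1, a LIM-domain protein gene on the X chromosome, stood at 71.7 CPM in KO MyePro (819 counts) and 57.1 CPM in KO LSK (384 counts), against 1.69 CPM in control MyePro (33 counts) and 9.99 CPM in control LSK (147 counts). Both KO libraries were above both control libraries. The log2 ratio of MyePro to LSK was 0.33 in KO (interval 0.15 to 0.51) and -2.46 in control (interval -3.15 to -2.01). Trpc6, a receptor-operated calcium-permeable channel of the plasma membrane, stood at 47.8 CPM in KO MyePro (546 counts) and 22.6 CPM in KO LSK (152 counts), against 1.64 CPM in control MyePro (32 counts) and 11.6 CPM in control LSK (170 counts). Again both KO libraries were above both control libraries, and KO MyePro was the highest of the 4. The log2 ratio of MyePro to LSK was 1.07 in KO (interval 0.82 to 1.35) and -2.71 in control (interval -3.41 to -2.27). Trpc6 overlaps the annotated lncRNA Gm32014 and Fhl1 holds the snRNA Gm23258.

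**Figure D1:**
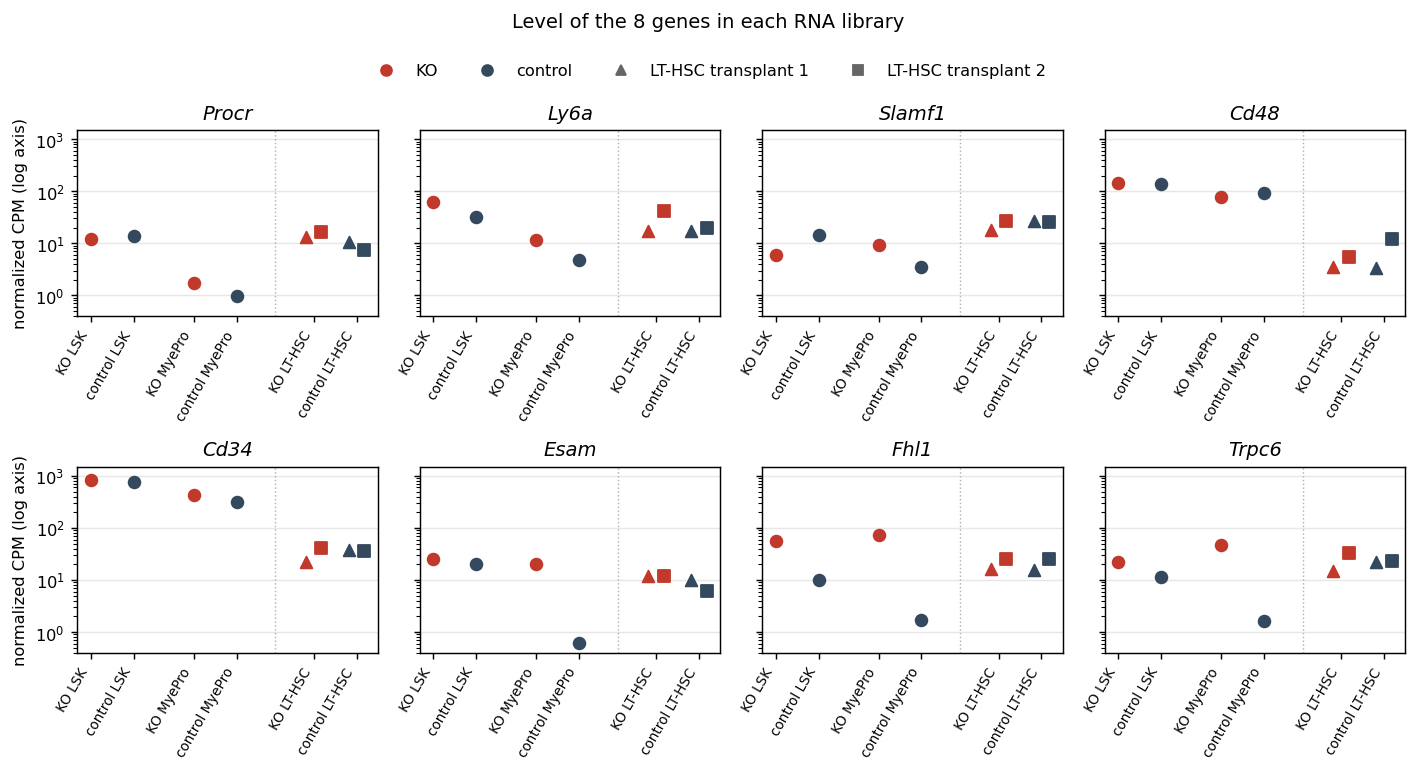
CPM (log axis) of each gene in every library, with KO left of control. LSK and MyePro have 1 library per genotype and LT-HSC 2, and the LT-HSC values were scaled apart; Esam, Fhl1 and Trpc6 stand at 19.9, 71.7 and 47.8 CPM in KO MyePro and below 2 CPM in control MyePro.

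Counted over the 8 genes, 7 were at least 2-fold lower in control MyePro than in control LSK, where 6.87% of the 10074 genes compared were, and 0 were at least 2-fold higher, where 3.17% of genes were. Cd48 was the gene within 2-fold. In KO cells 2 of the 8, Procr and Ly6a, were at least 2-fold lower in MyePro than in LSK, where 1.49% of 10345 genes were. Trpc6 was the 1 gene at least 2-fold higher, where 3.28% of genes were. The median log2 ratio over the 8 genes was -0.60 in KO and -2.56 in control, beside 0.01 and 0.08 over all genes compared. Ly6a, whose direction here follows from the LSK gate, is in these counts and medians, so its part in them is no finding. Procr, Ly6a, Slamf1, Esam, Fhl1 and Trpc6 were below 5 CPM in control MyePro and reached the minimum for this comparison through control LSK. Procr was likewise below 5 CPM in KO MyePro and reached it through KO LSK, and at a minimum mean of 10 CPM Ly6a, whose protein sets the LSK gate, was the 1 gene lower in KO. In control, 3 members were at least 2-fold lower at that minimum of 10 CPM, beside 7 at 5 CPM. Scaling by library totals alone left the control counts of members unchanged. In KO it moved the log2 ratio of Trpc6 to 0.93, within 2-fold, and Cd34 to -1.14 and Cd48 to -1.0, which pass 2-fold; all genes then split into 246 higher and 234 lower, beside 339 higher and 154 lower with TMM.

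**Figure D2:**
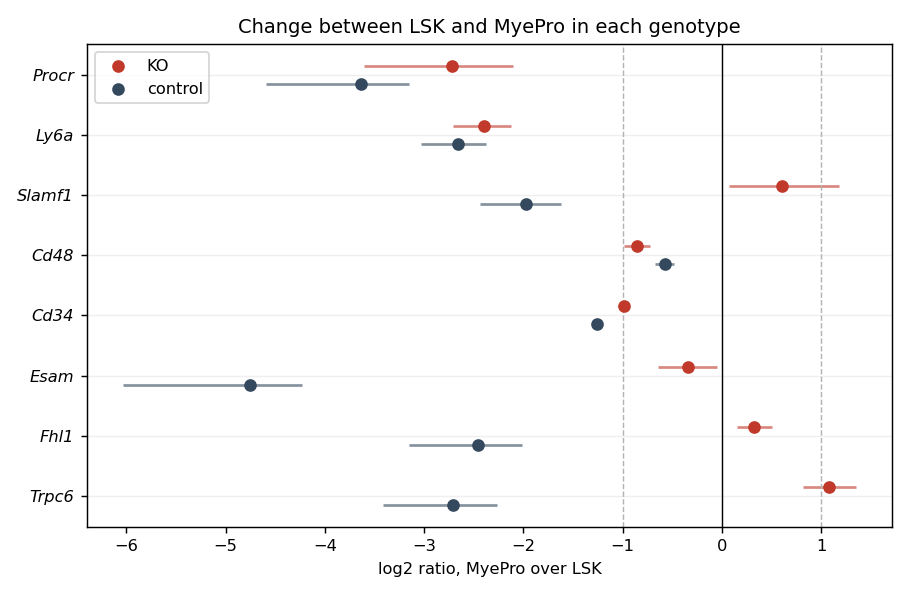
Log2 ratio of MyePro to LSK for each gene in KO and in control, with 95% counting intervals; dashed lines mark 2-fold. Procr and Ly6a are negative in both genotypes, while Slamf1, Fhl1 and Trpc6 are positive in KO and negative in control.

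The change from LSK to MyePro was then set against itself between genotypes, as the log2 ratio in KO minus that in control. It was 4.41 for Esam (interval 3.53 to 5.29), 3.78 for Trpc6 (3.18 to 4.39), 2.79 for Fhl1 (2.21 to 3.36) and 2.58 for Slamf1 (1.92 to 3.23). These 4 genes differed by at least 2-fold in the higher direction, where 7.79% of 10319 genes did, and 0 of the 8 differed by that much in the lower direction, where 1.52% did. The count was 5 with counts thinned to the smallest library, where Procr was at 1.32, and 3 at a minimum mean of 10 CPM. The median over all genes was -0.05. In the whole table, 4 genes had a larger difference than Esam, 21 than Trpc6, 83 than Fhl1 and 111 than Slamf1. Procr differed by 0.92 (interval -0.06 to 1.90) and Ly6a by 0.26, both within counting error of 0. Cd34 differed by 0.27 (0.20 to 0.34) and Cd48 by -0.28 (-0.44 to -0.12), beyond counting error and below 2-fold. No replicate exists for any of these changes, so the difference between genotypes was not tested over samples.

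**Figure D3:**
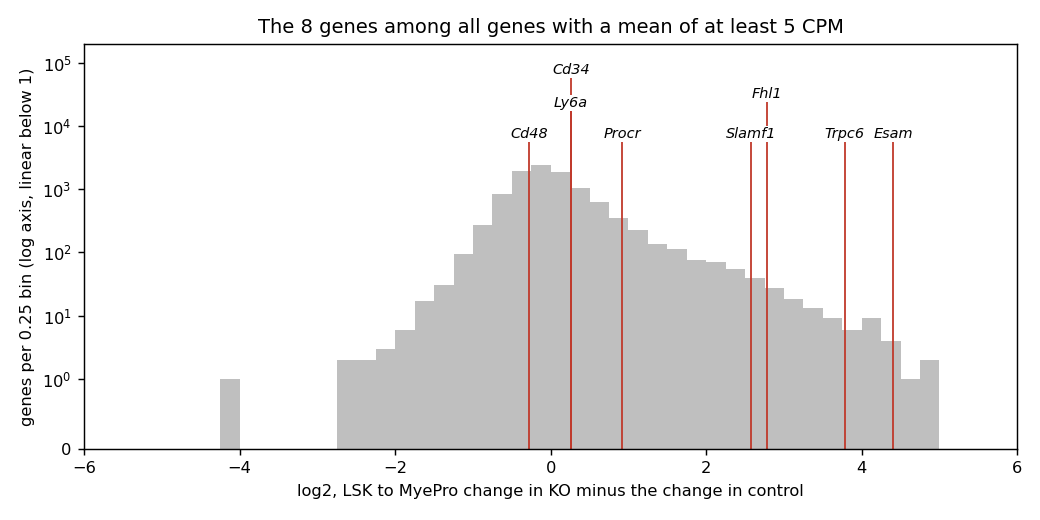
Number of genes (log axis) by the log2 change from LSK to MyePro in KO minus that in control, over 10319 genes, with the 8 genes marked. Esam at 4.41 and Trpc6 at 3.78 lie far in the upper tail, and Cd34, Ly6a and Cd48 lie near 0.

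The promoters of Trpc6, Fhl1 and Slamf1, 3 of the 4 genes with a difference above 2-fold, are shown to let a reader compare their starts, since methylation of lysine 4 of histone H3 marks active promoters. They are the 250 bases before each start listed in the RefSeq promoter table of GRCm38.p6, on the + strand, 5′ to 3′, with CG dinucleotides in capitals. The starts listed for Trpc6 and Fhl1 lie inside the annotated spans of these genes, downstream of the outermost gene start. Slamf1 (chr1:171766882-171767131) held 3 CG, the 2 starts of Fhl1 (chrX:56779433-56779682 and chrX:56786277-56786526) held 2 and 3, and Trpc6 (chr9:8543892-8544141) held 12.
Slamf1: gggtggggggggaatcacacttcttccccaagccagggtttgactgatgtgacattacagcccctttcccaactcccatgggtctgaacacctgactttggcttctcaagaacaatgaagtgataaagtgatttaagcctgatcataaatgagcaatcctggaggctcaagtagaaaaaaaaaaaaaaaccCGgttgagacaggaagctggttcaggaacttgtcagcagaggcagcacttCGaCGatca
Fhl1 first start: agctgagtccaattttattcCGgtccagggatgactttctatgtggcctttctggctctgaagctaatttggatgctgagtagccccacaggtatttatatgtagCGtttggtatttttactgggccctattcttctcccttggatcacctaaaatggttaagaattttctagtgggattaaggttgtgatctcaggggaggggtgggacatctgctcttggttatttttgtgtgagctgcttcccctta
Fhl1 second start: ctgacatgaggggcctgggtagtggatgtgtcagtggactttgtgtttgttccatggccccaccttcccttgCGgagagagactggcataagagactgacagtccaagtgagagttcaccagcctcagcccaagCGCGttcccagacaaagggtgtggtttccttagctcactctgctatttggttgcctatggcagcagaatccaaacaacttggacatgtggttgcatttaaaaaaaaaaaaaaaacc
Trpc6: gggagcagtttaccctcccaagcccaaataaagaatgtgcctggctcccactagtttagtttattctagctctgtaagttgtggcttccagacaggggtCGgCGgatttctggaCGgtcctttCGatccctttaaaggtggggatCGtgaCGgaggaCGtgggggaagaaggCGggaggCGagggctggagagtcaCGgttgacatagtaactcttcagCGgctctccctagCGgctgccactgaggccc
The median over 32851 promoter windows of the same length was 6 CG, so Trpc6 lay above it and Slamf1 and both Fhl1 starts below it.

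Of the 8 genes, 6 had promoter entries, with 7 starts in all, and Ly6a and Esam had none. The others among these held 13 CG (Procr), 6 (Cd34) and 4 (Cd48). As for Trpc6 and Fhl1, the starts listed for Procr and Cd48 lie inside the annotated spans of these genes. Letters commonly bound by blood transcription factors were searched on both strands. The GATA letters AGATAA occur in 9.99% of all windows and the ETS letters GGAAGT in 19.7%. The RUNX letters TGTGGT occur in 14.0%, the E-box CACGTG in 6.02%, and the letters CCGCCC of SP and KLF factors in 32.7%. The RUNX letters matched at 1 place in Cd48 and at 2 places in the second start of Fhl1, and the other motifs were found in 0 of the 7 windows. A match describes letters in the window only.

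Between genotypes within LSK, Fhl1 and Slamf1 moved the most, in opposite directions. With 57.1 CPM in KO LSK, against 9.99 CPM in control LSK, Fhl1 was 5.65-fold higher (log2 ratio 2.50, interval 2.24 to 2.80). With 5.95 CPM in KO LSK, against 14.3 CPM in control LSK, Slamf1 was lower (log2 ratio -1.25, interval -1.79 to -0.78). Ly6a and Trpc6 were higher by a little under 2-fold, with log2 ratios of 0.95 (0.76 to 1.15) and 0.96 (0.64 to 1.29). Esam and Cd34 were higher by 0.30 and 0.14, and Procr and Cd48, at -0.17 and 0.04, were within counting error. At 2-fold, 1 of the 8 genes was higher in KO LSK, where 4.78% of 10299 genes were, and 1 was lower, where 5.67% were. Scaled by library totals, Ly6a at 1.11 and Trpc6 at 1.12 also passed 2-fold, Cd48 was at 0.20, and all genes split into 648 higher and 457 lower, beside 492 higher and 584 lower with TMM. The median of all genes was -0.06 with TMM and 0.09 with library totals.

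Within MyePro the differences between genotypes were larger. Fhl1 was 39-fold higher in KO MyePro than in control MyePro (log2 ratio 5.28, interval 4.90 to 5.95), Trpc6 26.7-fold (4.74, interval 4.35 to 5.43) and Esam 26.1-fold (4.70, interval 4.18 to 5.99). Among 10249 genes, 22 had a higher ratio than Fhl1, 33 than Trpc6 and 35 than Esam. Slamf1 was higher by a log2 ratio of 1.33 (0.91 to 1.82), the reverse of its direction in LSK, and Ly6a by 1.21 (0.84 to 1.63). Cd34 was higher by 0.40 and Cd48 lower, at -0.24 (interval -0.36 to -0.12). Procr, at 1.75 CPM in KO MyePro and 0.974 CPM in control MyePro, was below the minimum level for this comparison, and its interval of -0.13 to 1.83 held 0.

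Of the 7 genes above the minimum, 5 were at least 2-fold higher in KO MyePro, where 10.7% of genes were, and 0 were at least 2-fold lower, where 8.63% were. Esam, Fhl1, Trpc6, Slamf1 and Ly6a were below 5 CPM in control MyePro and reached the minimum through KO MyePro. The median of all genes was -0.12, above the ratio of Cd48 and below those of the other 6. These KO to control comparisons use the same 4 libraries as the LSK to MyePro changes, so they are not independent of them.

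**Figure D4:**
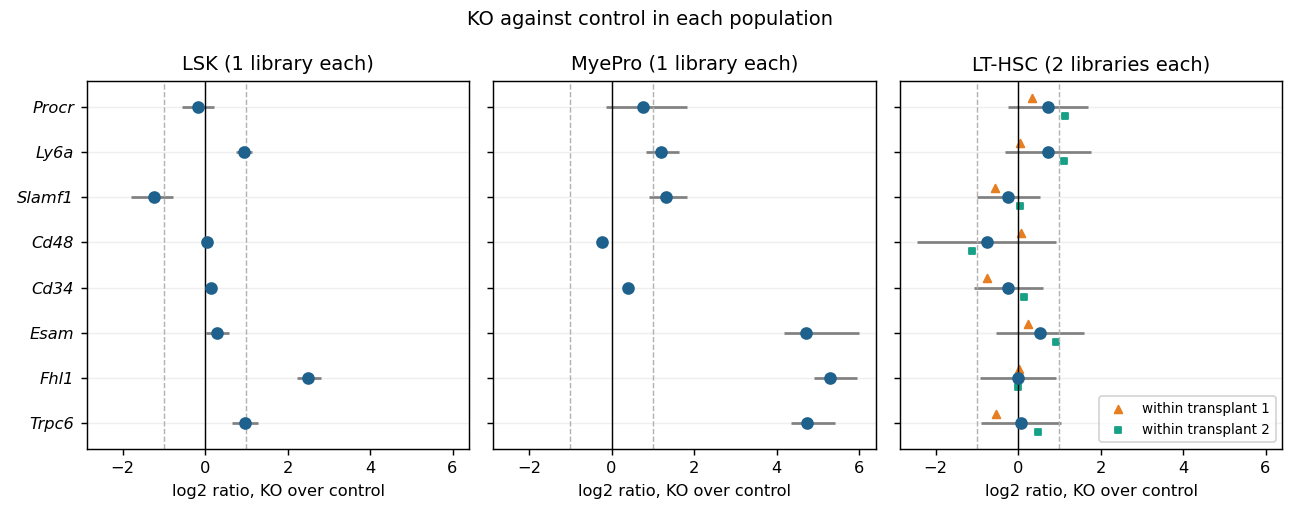
Log2 ratio of KO to control for each gene in LSK, MyePro and LT-HSC. Bars are 95% counting intervals in LSK and MyePro and 95% confidence intervals over 2 libraries per genotype in LT-HSC, where triangles and squares are the ratios within transplants 1 and 2, and dashed lines mark 2-fold. Esam, Fhl1 and Trpc6 stand at 4.70, 5.28 and 4.74 in MyePro and at 0.54, 0.00 and 0.08 in LT-HSC.

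Markers of other cell types also differed between the MyePro libraries, in both directions. The counts below are at 2-fold, where 10.7% of all genes compared were higher in KO MyePro and 8.63% lower. Of 15 megakaryocyte markers, KO MyePro had 13 higher by at least 2-fold and 0 lower, with a median log2 ratio of 3.56. Their summed level was 3150 CPM in KO MyePro, against 355 CPM in control MyePro, and 1880 CPM in KO LSK, against 1050 CPM in control LSK. The collagen receptor gene Gp6 was at 10.9 CPM in KO MyePro and at 0 in control MyePro. Of 13 erythroid markers past the minimum, 3 were higher and 9 lower, and all 14 summed to 993 CPM in KO MyePro, against 6230 CPM in control MyePro. Of 7 endothelial markers past the minimum, 5 were higher and 1 lower, and all 13 summed to 340 CPM in KO MyePro, against 149 CPM in control MyePro, with Sox17 at 0 in both and Cldn5 at 0 in KO MyePro. Of 4 mature neutrophil markers past the minimum, 3 were higher and 1 lower. All 10 summed to 620 CPM in KO MyePro, against 45.0 CPM in control MyePro. Of 4 T and NK cell markers past the minimum, 4 were higher and 0 lower, and all 11 summed to 652 CPM, against 214 CPM. Of 10 macrophage and dendritic cell markers past the minimum, 6 were higher and 3 lower, and all 11 summed to 397 CPM in KO MyePro, against 186 CPM in control MyePro. Both stromal markers past the minimum were higher, and all 9 summed to 93.6 CPM, against 29.6 CPM. The mast cell, basophil and eosinophil markers summed to 1140 CPM in KO MyePro, against 647 CPM in control MyePro. Of 6 of these past the minimum, however, 2 were higher and 3 lower, with a median log2 ratio of -0.23. The B cell markers summed to 5.95 CPM in KO MyePro, against 21.1 CPM in control MyePro, and the 1 past the minimum was lower. The part of these cell types in the differences of Esam, Fhl1, Trpc6 and Slamf1 was not tested.

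In LSK, the erythroid markers summed to 845 CPM in KO LSK, against 1840 CPM in control LSK. Of 12 of these past the minimum, 2 were at least 2-fold higher in KO LSK and 8 lower. The macrophage and dendritic cell markers summed to 313 CPM in KO LSK, against 946 CPM in control LSK. Of 10 of these past the minimum, however, 5 were at least 2-fold higher in KO LSK and 3 lower, with a median log2 ratio of 1.04. Among all genes compared in LSK, 4.78% were higher and 5.67% lower. The sums were higher in KO LSK for T and NK cell markers (584 CPM, against 210 CPM in control LSK), mature neutrophil markers (185 CPM, against 81 CPM), stromal markers (151 CPM, against 57.8 CPM), mast cell, basophil and eosinophil markers (677 CPM, against 319 CPM) and endothelial markers (322 CPM, against 269 CPM). Of 4 T and NK cell markers past the minimum, 4 were at least 2-fold higher in KO LSK and 0 lower. For mature neutrophil markers it was 3 higher and 1 lower of 4, and for stromal markers 2 and 0 of 3. For mast cell, basophil and eosinophil markers it was 3 and 2 of 5, and for endothelial markers 2 and 1 of 6. The B cell markers summed to 2.83 CPM in KO LSK, against 25.7 CPM in control LSK, and the 1 past the minimum was lower. The part of these cell types in the differences of Fhl1, Slamf1, Ly6a and Trpc6 in LSK was not tested.

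In LT-HSC, where each genotype had 2 libraries, 0 of the 8 genes passed the test between the libraries labelled KO and the control libraries. Their fitted log2 fold changes ran from -0.76 (Cd48) to 0.72 (Procr and Ly6a), and all 8 had an adjusted p = 0.999 (quasi-likelihood test of edgeR, Benjamini-Hochberg over 12844 genes). In all, 0.0156% of genes (2 genes, both lower in KO) passed that test and 2.29% had an unadjusted p under 0.05. None of the 8 genes was among either. DESeq2 and limma-voom also called 0 of the 8, and so did edgeR with transplant as a block. DESeq2 called 14 genes in all, limma-voom 1 and the blocked fit 4. The libraries are pools of mice, so the p-values measure the spread between 2 pools per genotype.

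Procr stood at 13.5 and 16.5 CPM in the libraries labelled KO from LT-HSC, against 10.7 and 7.56 CPM in control LT-HSC. Both were above both control libraries, with a log2 fold change of 0.72 ± 0.41 (SE, n = 2 libraries per genotype; interval -0.25 to 1.69, adjusted p = 0.999 by edgeR). Esam likewise stood at 12.2 and 11.7 CPM in the libraries labelled KO, against 10.2 and 6.22 CPM in control LT-HSC, with a log2 fold change of 0.54 ± 0.45 (SE; interval -0.53 to 1.61). These are the 2 genes of the 8 with both KO libraries above both control libraries, where 13.8% of all genes were, and 0 of the 8 had both below, where 13.9% were. This order held with TMM scaling. Scaled by library totals, Procr was at 7.82 and 20.8 CPM in the libraries labelled KO, against 12.8 and 8.59 CPM in control LT-HSC, and Esam at 7.06 and 14.8 CPM, against 12.3 and 7.07 CPM, so KO LT-HSC 1 was then the lowest library for both genes.

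Ly6a stood at 17.6 and 42.1 CPM in the libraries labelled KO, against 16.9 and 19.3 CPM in control LT-HSC. KO LT-HSC 2 alone was high, and the log2 fold change of 0.72 ± 0.44 (SE; interval -0.33 to 1.77) became 1.21 when KO LT-HSC 1 was left out and -0.0454 when KO LT-HSC 2 was. The ratio was 0.06 within transplant 1 and 1.12 within transplant 2. Cd48 stood at 3.53 and 5.56 CPM in the libraries labelled KO, against 3.37 and 12.0 CPM in control LT-HSC, so control LT-HSC 2 alone was high, and its log2 fold change was -0.76 ± 0.71 (SE; interval -2.45 to 0.93). Without control LT-HSC 2 it was 0.45. The 12 myeloid progenitor markers summed to 114 and 339 CPM in the libraries labelled KO, against 95 and 460 CPM in control LT-HSC, so the libraries of transplant 2 were higher in these as in Cd48. Their part in the Cd48 levels was not tested.

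Slamf1 stood at 18.1 and 26.3 CPM in the libraries labelled KO, against 26.9 and 25.4 CPM in control LT-HSC, and Cd34 at 21.9 and 40.8 CPM, against 37.2 and 36.7 CPM. KO LT-HSC 1 was low in both genes and KO LT-HSC 2 was near or above the controls. Their log2 fold changes were each -0.24, with intervals of -0.99 to 0.52 for Slamf1 and -1.08 to 0.60 for Cd34. Without KO LT-HSC 1 these values were 0.0061 for Slamf1 and 0.14 for Cd34. In that library 62.4% of gene counts were mitochondrial ribosomal RNA, against 45.1% to 49.6% in the other LT-HSC libraries. With mitochondrial ribosomal RNA left out, the log2 fold changes were -0.2383 for Slamf1 and -0.2382 for Cd34. TMM factors had already scaled the 85499797 gene counts of KO LT-HSC 1 to an effective total of 49600000. Leaving that RNA out could therefore move these values little. The part of mitochondrial ribosomal RNA in this difference between libraries was not tested.

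Fhl1 stood at 16 and 25.1 CPM in the libraries labelled KO, against 15.8 and 25.2 CPM in control LT-HSC, and the groups overlapped fully. The log2 fold change was 0.00 ± 0.39 (SE; interval -0.92 to 0.93), and within transplants 1 and 2 it was 0.02 and -0.01. The gene is X-linked, and the libraries labelled KO were high in Xist and near 0 in Ddx3y, which cannot be told apart from genotype here. In LSK and MyePro, by contrast, all 4 libraries held Ddx3y at 26.6 to 42.9 CPM and Xist below 1 CPM. Trpc6 stood at 15.2 and 32.5 CPM in the libraries labelled KO, against 22 and 23.3 CPM in control LT-HSC. The KO values lay on both sides of the controls, and the log2 fold change was 0.08 ± 0.41 (SE; interval -0.89 to 1.04). These limits are for LT-HSC alone, and no test set them against the ratios in MyePro.

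Relatives and partners of the 8 genes were counted from lists of each pathway. Beside Procr, of 7 measured genes of the protein C pathway, KO MyePro had 5 higher by at least 2-fold and 1 lower, with a median log2 ratio of 2.73, where 10.7% of all genes were higher and 8.63% lower. Among them were the cofactor gene Pros1 (log2 ratio 4.77), the thrombin receptor genes F2rl2 (3.05) and F2r (2.73), and the integrin gene Itgam (2.78), while Tfpi, an inhibitor of coagulation, was lower (-1.07). In LSK 2 of 7 were higher, Pros1 (2.62) and Itgam (2.32), and 0 lower, where 4.78% of all genes were higher and 5.67% lower. Of the SLAM family beside Slamf1 and Cd48, 3 of 11 genes passed the minimum. In KO MyePro, Cd244 (1.78) and Cd84 (1.76) were at least 2-fold higher, and in KO LSK Ly9 (-1.11) was lower.

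Beside Esam, the junction protein gene F11r was higher in KO MyePro, with 17.9 CPM, against 1.43 CPM in control MyePro (log2 ratio 3.51). Fhl3, the measured relative of Fhl1, was also higher (1.42), and of 3 measured genes of the TRPC and store-operated calcium entry list Orai1 was (1.07). Of the Ly6 family 2 genes were measured in MyePro, and Ly6c2 was lower in KO MyePro (-1.56). Of the CD34 sialomucins and L-selectin, 3 were measured in LSK, where Podxl was lower in KO (-1.49). Interferon-response genes, which pIpC induces and to which Ly6a belongs, had 2 of 21 higher and 0 lower in KO LSK (Ddx58 and Usp18, 1.08 each, with a list median of 0.23), where 4.78% of all genes were higher. In KO MyePro 5 of 20 were higher and 0 lower (median 0.61), where 10.7% of all genes were higher. Their part in the levels of Ly6a was not tested.

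A list of 45 other stem cell surface and signature genes shows where the 8 stand among their kind. From LSK to MyePro, KO cells had 3 of 29 measured genes higher by at least 2-fold and 1 lower, with a median of 0.16, where 3.28% of all genes were higher and 1.49% lower. Control cells had 2 of 32 higher and 22 lower, with a median of -1.55, where 3.17% of all genes were higher and 6.87% lower. Between genotypes in MyePro, 16 of 28 were higher in KO and 3 lower, with a median of 1.33, where 10.7% of all genes were higher and 8.63% lower. Examples are Mmrn1 (5.56), Itgb3 (4.23) and Tek (3.45). In LSK 4 of 32 were higher and 8 lower in KO, with a median of -0.30, where 4.78% of all genes were higher and 5.67% lower. Krt18 (-3.86) and Vwf (-3.22) were lowest while Mmrn1 (3.11) was highest. In LT-HSC 0 of 40 passed the test, with a median of 0.01. Several of these genes, among them Mmrn1, Itgb3 and Vwf, are also megakaryocyte markers. The 9 measured genes of multipotent progenitors and lymphoid priming were lower in KO LSK in 6 cases and higher in 0, with a median of -1.56, where 5.67% of all genes were lower. Dntt, Cd27 and Flt3 had the largest changes, at -3.30, -2.91 and -1.80.

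For each gene the 2 others with the closest pattern over all 8 libraries were found, by the root mean square difference of centred log2 CPM among 7304 genes. Of the pair found for Slamf1, Zbtb20 (0.25) is given. Zbtb20 stood at 13.2 CPM in KO MyePro and 10.4 CPM in KO LSK, against 4.87 CPM in control MyePro and 16.4 CPM in control LSK. MyePro was thus the higher population in KO and LSK the higher in control. Zbtb20 was picked for its likeness to Slamf1 over these same 8 libraries, so the order it shares with Slamf1 is a description only. Esam was closest to F11r (0.38) and Pglyrp2 (0.40), Fhl1 to the megakaryocyte marker Mmrn1 (0.40) and Dok2 (0.41), and Trpc6 to Rbpms2 (0.33) and the myosin kinase gene Mylk (0.34). Ly6a was closest to the interferon-induced Ifi44 (0.31) and to Klhl4 (0.32), and Procr to Trp53i11 (0.30) and Zfp467 (0.33). Cd48 was closest to Zfp708 (0.11) and Maml3 (0.15), and Cd34 to Paqr8 (0.13) and Ppp1r13b (0.16). For comparison, the median over all genes ran from 0.58 for Cd34 to 1.53 for Fhl1. Among the 8 themselves the closest pairs were Slamf1 and Cd34 (0.44), Fhl1 and Trpc6 (0.45) and Procr and Ly6a (0.45).

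On GRCm38.p6, Slamf1 (chromosome 1, 171767131 to 171801184) and Cd48 (chromosome 1, 171681245 to 171705258) lie near each other, and Cd34 (194938821 to 194961292) lies further along chromosome 1. Procr lies on chromosome 2 (155751125 to 155755478), Ly6a on chromosome 15 (74994877 to 74998031) and Fhl1 on chromosome X (56731209 to 56793346). Esam (37528089 to 37538319) and Trpc6 (8543867 to 8680752) are both on chromosome 9. Slamf1 and Cd48, for all their nearness, had differences of the LSK to MyePro change of 2.58 and -0.28.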

How the data were processed

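RNA was sequenced from 8 libraries of sorted mouse marrow cells; the 6 ChIP samples were not analysed here. PolyA RNA was selected in 2 rounds, per the labels' protocols. The authors deposited raw counts per gene for each library. Per the submitters' processing notes, TopHat2, Picard 1.126, HTSeq 0.6.0 and build mm10 were among the tools and builds of the series. Annotation and strandedness of the counting were not given in the sources used here; reads of overlapping genes cannot be told apart.

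Left out were entries without a gene, ERCC spike-ins and an entry (DPY30-SPKIG) that the labels do not explain. Reads with no feature took 2.40% to 26.0% of the file totals and reads aligned to several places 23.9% to 37.9%. Of the Ensembl IDs, 37607 (96.0%) matched a symbol. Positions and promoter sequences are from RefSeq, GRCm38.p6.

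LSK and MyePro counts were TMM-scaled with edgeR 4.0.16 (R 4.3.3). Log2 ratios used a prior count of 2, which shrinks them at low counts, and their 95% intervals are exact binomial intervals around the unshrunk ratio; for the difference between 2 ratios a delta-method interval was used. LT-HSC libraries were compared with edgeR's two-sided quasi-likelihood test on genes that reached 1 CPM in 2 or more of the 4 libraries, with a Benjamini-Hochberg adjusted p under 0.05. LT-HSC fold changes rest on 2 pools per genotype. Libraries 1 and libraries 2 each come from 1 transplant by their labels, which pairs KO with control; their deviations from the group means correlated at 0.285 over 12844 genes. Alternatives were DESeq2 1.42.0, limma-voom 3.58.1, a transplant block, other scalings, filters and prior counts, counts thinned to the smallest library, mitochondrial rRNA left out, and leaving out each LT-HSC library. The scripts were tested on simulated data.

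The 8 genes were named whatever their values, with Dpy30, the 2 nearest patterns of each gene, and up to 3 genes per list with the largest change. The members and lists were chosen with earlier results of these data known; Xist, Ddx3y, Gp6, Sox17, Cldn5, F2r and Tfpi were named after their values were seen. A few genes that the rule would name are not reported here.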

Additional observations from a re-analysis of the deposited data

Results flagged for a closer look

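For 3 genes the change from LSK to MyePro went in opposite directions in KO and control. Trpc6 was higher in MyePro than in LSK in KO (log2 ratio 1.07) and lower in control (-2.71), a difference of 3.78. Fhl1 was likewise higher in KO (0.33) and lower in control (-2.46), a difference of 2.79. Slamf1 was higher in KO (0.60) and lower in control (-1.97), a difference of 2.58. With 1 library per population and genotype, these differences were not tested, and the positive ratio of Trpc6 in KO was 0.93 when libraries were scaled by their totals.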

How the results depend on the processing

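Calls of LT-HSC genes were few under every setting tried: 2 with the settings reported, 4 with library totals, 1 with ERCC size factors, 4 without a filter, 4 with a mean of at least 5 CPM, 4 with transplant as a replicate block, 14 with DESeq2, 1 with limma-voom, 0 with mitochondrial rRNA left out, and 0 to 5 when 1 library was left out (0 without either control, 3 without KO 1, 5 without KO 2). The number among the 8 genes was 0 in each, the block included, which changed no other call of a member.

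The LT-HSC log2 fold changes of 6 of the 8 genes changed sign under some settings: Fhl1 to -0.22 with library totals, -0.0024 with RLE, -0.0023 with DESeq2 and -0.36 to 0.39 with a library left out; Trpc6 to -0.092 with library totals, -0.0239 with the replicate block and -0.57 to 0.52 with a library left out; Cd34 to 0.0291 with ERCC and -0.75 to 0.14; Cd48 -1.40 to 0.45; Slamf1 -0.53 to 0.0061; Ly6a -0.0454 to 1.21, the last 4 ranges also over libraries left out. Ly6a had an unadjusted p of 0.0166 without KO 1 (adjusted p = 1 by edgeR). The libraries without which the sign changed were KO 1 for Cd34 and Slamf1, KO 2 for Ly6a and Trpc6, control 2 for Cd48, and KO 2 and control 1 for Fhl1.

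Counts at 2-fold moved with the filter and scaling. Library totals gave 4 members in LSK between genotypes, against 2, and 234 genes lower from LSK to MyePro in KO, against 154. Without a filter the counts of genes higher and lower were 2575 and 1909 in LSK, 4231 and 1817 in MyePro, 1035 and 2527 from LSK to MyePro in control, 2390 and 1499 in KO, and 3734 and 1699 for the difference; with TMM and the filter they were 492 and 584, 1098 and 884, 319 and 692, 339 and 154, and 804 and 157. At a mean of at least 10 CPM, 314 genes were higher in KO LSK, 3 members passed 2-fold in MyePro between genotypes and 3 from LSK to MyePro in control, 211 and 90 genes were higher and lower in KO, and 512 were higher for the difference; fewer genes enter at that level. The cause of the other moves was not tested. Depth limits Procr, at 20 and 19 counts in KO and control MyePro, and Esam, at 12 counts in control MyePro.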
